A study of Mus musculus with 23 samples.

Results

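Gata3, the AP-2 genes Tfap2a, Tfap2b and Tfap2c, the T-box gene Tbx3 and Cebpb are 6 transcription factor genes tied to luminal cell fate in the mammary gland. They were followed across mouse mammary epithelial cells from virgin, pregnant and retired breeder glands. The probe sets taken were those whose only gene symbol in the array annotation was one of these names, which gave 16 probe sets for 6 of the 18193 genes named on the array. Gata3 had 1 probe set, Tfap2b and Cebpb 2 each, Tfap2a and Tfap2c 3 each, and Tbx3 5. A filter on dim signal kept 15 of the 16, and all 6 genes were tested. The probe set left out, 1444594_at for Tbx3, lay below the 40th percentile of every array.

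The mammary epithelium has an inner luminal layer, which senses hormones and makes milk, and an outer basal layer of contractile myoepithelial cells that also holds stem cells. GATA3 is a zinc finger factor needed for the formation and upkeep of luminal cells. It works together with FOXA1 and the oestrogen receptor. AP-2 factors bind GC-rich sites as dimers and have largely shared sequence preferences. TBX3 is a T-box repressor required for the first mammary buds to form, and mutations in its gene cause ulnar-mammary syndrome in people. CEBPB is a leucine zipper factor needed for ductal growth and for alveolar differentiation in pregnancy.

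The cells came from female C57BL/6 mice, an inbred strain, with no engineered allele or drug treatment given in the labels. Virgin mice of 3 and 9 weeks, mice at day 10, 16 and 19 of pregnancy, and retired breeders were used. Each array was labelled as stem cells, luminal progenitors or mature luminal cells, and day 19 was represented by mature luminal cells alone. The 23 arrays formed 16 groups, of which 7 had 2 arrays and 9 had 1. Duplicate arrays existed for all 3 cell types at 9 weeks, for luminal progenitors and stem cells at 3 weeks, and for mature luminal and stem cells at day 10. The labels name neither the sorting markers nor the animals behind each array, so p-values reflect no more than the variation among these arrays, possibly technical. Retired breeders differ from 9-week virgins in both age and parity, which cannot be told apart.

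Basal marker genes were lower in the luminal preparations than in stem cells. In luminal progenitors 7 of 9 passed (4.38% of all genes passed in either direction) and in mature luminal cells 8 of 9 (8.34%). Their mean ran from 9.77 to 12.63 log2 units on stem cell arrays. In the same 2 comparisons luminal markers passed as higher in 0 of 9 and 1 of 9, and luminal progenitor markers in 1 of 5 and 0 of 5. Mature luminal markers passed as higher in 1 of 3 and 2 of 3 tested. Luminal means overlapped, at 10.40 to 12.06 on stem, 11.27 to 12.45 on luminal progenitor and 11.61 to 12.40 on mature luminal arrays. Some arrays stood apart from their labels. One 9-week stem array, titled replicate 1, had the highest mean of luminal markers among the stem arrays at 12.06, where the other stem arrays ran from 10.40 to 11.47. The luminal progenitor arrays of days 10 and 16 had basal means of 9.94 and 11.02 and fibroblast means of 10.32 and 10.68. The retired breeder luminal progenitor array had a basal mean of 9.28 and a fibroblast mean of 9.62. The median fibroblast mean was 9.23 over the 7 luminal progenitor arrays and 4.53 over the 8 mature luminal arrays. Of 8 fibroblast markers 3 passed as lower in mature luminal cells than in luminal progenitors (0.124% of all genes passed in either direction). In that comparison 0 of 5 luminal progenitor and 0 of 3 tested mature luminal markers passed, with median differences of -0.18 and -0.07. The excess of the 3′ over the 5′ Gapdh control probe set, a sign of RNA quality, was 5.16 for 3-week mature luminal cells and 3.77 for retired breeder stem cells, and 0.87 to 2.72 elsewhere. Arrays titled replicate 1 also shifted together. In the 7 groups of 2, the replicate 2 array was higher for Gata3, Tfap2b and Cebpb in 7 of 7 groups, by means of 0.78, 1.13 and 0.81. For Tfap2c it was higher in 6 of 7 and for Tfap2a in 5 of 7, with mean differences of 0.60 and 0.29. For Tbx3 it was higher in 3 of 7, with a mean difference of -0.16. The share of all genes that shifted this way was not computed. The median of all probe sets was also higher on the replicate 2 array in every one of these groups. It was 5.34 against 4.87 in 3-week stem cells and 4.90 against 4.79 in day-10 stem cells, so the shift was not particular to these genes.

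The series is titled for DNA methylation changes with pregnancy, and methylation acts mainly on CpG dinucleotides. The 250 bases before a start site are therefore shown for 3 of the genes, with CpG counts from near the median to high. The sequences are RefSeq's on build GRCm38.p6, printed 5′ to 3′ along the gene's strand, with each CpG in capitals. The table had windows for 4 of the 6 genes. No methylation values were analysed here.
Gata3: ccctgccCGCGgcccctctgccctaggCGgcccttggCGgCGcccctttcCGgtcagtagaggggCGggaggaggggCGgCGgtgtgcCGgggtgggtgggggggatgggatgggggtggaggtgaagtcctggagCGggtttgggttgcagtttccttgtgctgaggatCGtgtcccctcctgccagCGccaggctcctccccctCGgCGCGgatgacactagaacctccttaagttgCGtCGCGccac
Tfap2b: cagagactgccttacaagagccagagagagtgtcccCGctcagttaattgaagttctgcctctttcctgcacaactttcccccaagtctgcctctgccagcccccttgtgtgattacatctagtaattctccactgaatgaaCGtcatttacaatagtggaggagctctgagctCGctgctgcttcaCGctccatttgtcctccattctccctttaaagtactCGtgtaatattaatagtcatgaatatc
Cebpb: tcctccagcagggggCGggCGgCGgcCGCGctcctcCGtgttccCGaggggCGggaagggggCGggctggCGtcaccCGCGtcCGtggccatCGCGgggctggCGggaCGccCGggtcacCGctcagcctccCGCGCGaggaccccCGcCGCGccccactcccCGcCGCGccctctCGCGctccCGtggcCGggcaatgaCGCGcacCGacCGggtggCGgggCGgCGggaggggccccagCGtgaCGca

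The Gata3 window lies at chr2:9878601-9878850 on the minus strand and holds 19 CpG, more than 80.3% of the 32851 RefSeq windows of this length. The Tfap2b window lies at chr1:19211804-19212053 on the plus strand and holds 5 CpG, below the median of 6. The Cebpb window, at chr2:167688665-167688914 on the plus strand, holds 41 CpG, more than 98.9% of windows. Neither of the windows of Tfap2a, with 10 CpG each, is printed. The AP-2 letters GCCNNNGGC, which read the same on both strands, start at 3 positions of the Gata3 window. They are in 13.7% of all windows, and not in the Tfap2a, Tfap2b or Cebpb windows. The letters GATAA (22.6% of windows), TTGCNNAA for CEBP factors (9.56%) and AGGTGTG for T-box factors (5.11%), searched on both strands, were not in any window of these 4 genes.

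The plot of array values shows Tbx3 as the gene with the widest range. Its deposited log2 values ran from 6.64 in mature luminal cells of day 19 to 11.43 in a 3-week luminal progenitor array. A value is a log2 intensity, so a difference of 1 unit is a doubling of signal, and values of different genes are not compared because probes differ in brightness. With the 16 groups put in order of Tbx3 mean, 3 of the 15 gaps between neighbours exceeded the pooled SD between replicates of 0.46. The widest gap, 1.16, separated day-10 luminal progenitors from the mature luminal cells of days 16 and 19. Gata3, Tfap2a, Tfap2b and Tfap2c each had 1 such gap, and Cebpb had 0, with a widest gap of 0.16 against a pooled SD of 0.65. For Gata3 and Tfap2a that gap set 3-week stem cells, at means of 8.98 and 9.21, below all other groups. For Tfap2b it set mature luminal cells of days 16 and 19 below the rest. Most neighbouring groups in these orders did not differ beyond their spread.

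**Figure D1:**
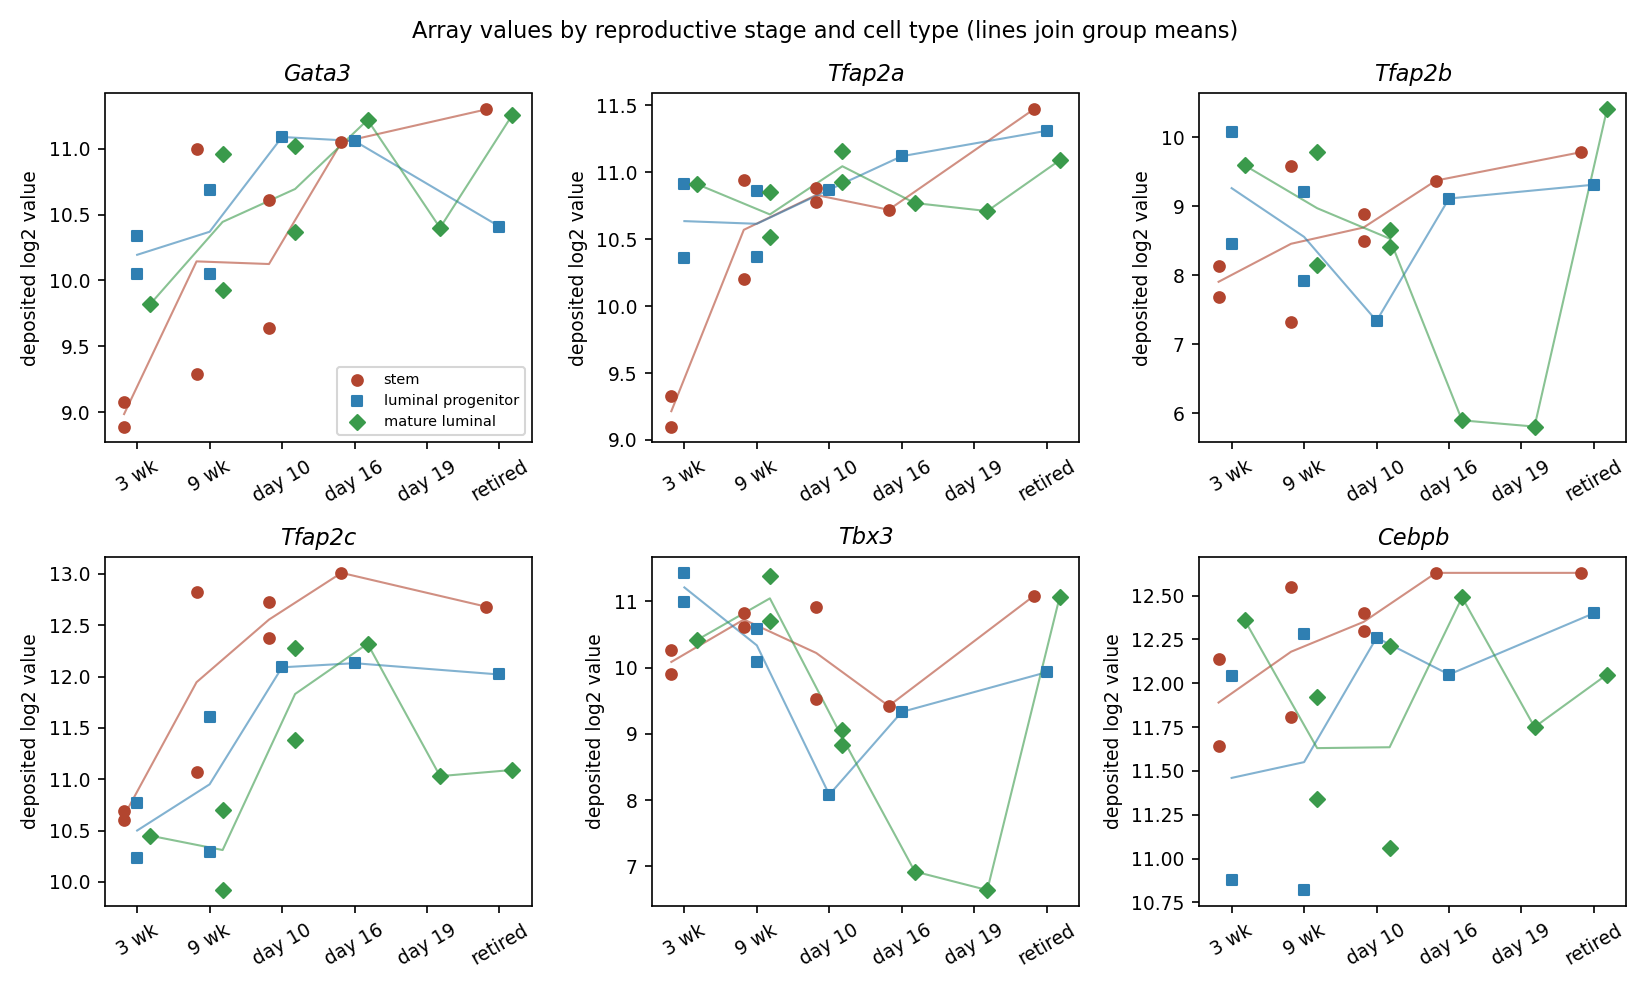
Deposited log2 value (vertical axis) of each of the 6 genes on the 23 arrays, by reproductive stage (horizontal axis) and cell type (colour and symbol); lines join group means and pass over day 19 where it was not measured. In mature luminal cells at days 16 and 19, Tbx3 reads 6.92 and 6.64 and Tfap2b 5.90 and 5.81.

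Tbx3 fell in pregnancy. Across the 3 cell types, its mean over days 10 and 16 was 8.82 against 10.70 in 9-week virgins, a difference of -1.88 ± 0.27 (standard error of the limma fit), or 3.69-fold lower, with an adjusted p of 0.00223. Tfap2c, an AP-2 gene of the trophoblast and the mammary epithelium, rose by 1.25 ± 0.32 from a mean of 11.07 to 12.32, or 2.39-fold, with an adjusted p of 0.0380. Together these were 2 of the 6 genes, where 7.13% of the 15378 genes tested passed. The test was limma on all 23 arrays with Benjamini-Hochberg adjustment over all genes tested, and a gene passed at an adjusted p under 0.05. In these bulk preparations, fewer cells of a type and less RNA per cell cannot be told apart.

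Tbx3 in mature luminal cells read 11.38 and 10.71 in 9-week virgins, 10.42 at 3 weeks and 11.07 in retired breeders. It read 9.05 and 8.83 at day 10, 6.92 at day 16 and 6.64 at day 19. All 4 pregnant arrays were below all 4 others, a pattern that 8.26% of genes shared in this direction. Day 10 already stood lower, and the later days were lower again. The difference of days 10 and 16 from 9 weeks in mature luminal cells was -3.11 ± 0.45, 8.66-fold, with an adjusted p of 0.00482. Tbx3 was the 1 gene of the 6 that passed in this comparison, where 2.25% of all genes did. The call rested on few arrays: it was lost without the day-16 array (-2.11, adjusted p 0.0922) and without replicate 2 of the 9-week arrays (-2.78, adjusted p 0.0670). It was lost too when the mean of all Tbx3 probe sets was used (-2.04, adjusted p 0.0508) or when the fit held these groups alone (adjusted p 0.0564).

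In stem cells, Tbx3 read 10.62 and 10.83 at 9 weeks, 9.53 and 10.91 at day 10 and 9.42 at day 16. The day-10 pair spanned the virgin values. The difference was -0.91 ± 0.45, with an adjusted p of 0.457. In luminal progenitors it read 10.09 and 10.58 at 9 weeks, 8.08 at day 10 and 9.33 at day 16. The difference of -1.63 ± 0.48 had an adjusted p of 0.200. In stem cells 0 of the 6 genes passed (0.260% of all genes), with 0 at an unadjusted limma p under 0.05 among them and 1854 among all genes. In luminal progenitors 0 of the 6 passed as well (0.156% of all genes), with 1, Tbx3, at an unadjusted p under 0.05 and 1974 among all genes. The test of whether the pregnancy difference of Tbx3 was larger in mature luminal than in stem cells gave -2.21 ± 0.64, unadjusted p 0.00491 and adjusted p 0.431. For that contrast limma passed 0 of the 6 (0.0130% of all genes), with 1 of the 6 and 901 of all genes at an unadjusted p under 0.05. For luminal progenitors against stem cells it again passed 0 (0.0065%), with 0 of the 6 and 705 of all genes at an unadjusted p under 0.05.

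Within the arrays titled replicate 1, which compare day 10 with 9 weeks in stem and mature luminal cells, the mean difference of Tbx3 was -0.90. Within all other arrays it was -1.98. For mature luminal cells alone these values were -1.88 and -3.40, and for stem cells alone 0.08 and -1.15. Each replicate 1 value for a cell type is a single array minus a single array and has no spread. The stem value rests on the 9-week stem array with high luminal markers, and day 16 has no replicate 1 array. These values therefore do not show that the fall differed between cell types. Kept to the arrays with a replicate number, which leaves day 10 and 9 weeks in stem and mature luminal cells, the difference was -1.31. Its adjusted p was 0.0279 with the replicate number as a block and 0.105 without the block, a setting added after seeing the data. In mature luminal cells these arrays gave -2.11, with adjusted p of 0.0191 with the block and 0.0896 without it. Without the luminal progenitor arrays, also added after seeing the data, the difference over cell types was -2.01, adjusted p 0.0178.

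**Figure D2:**
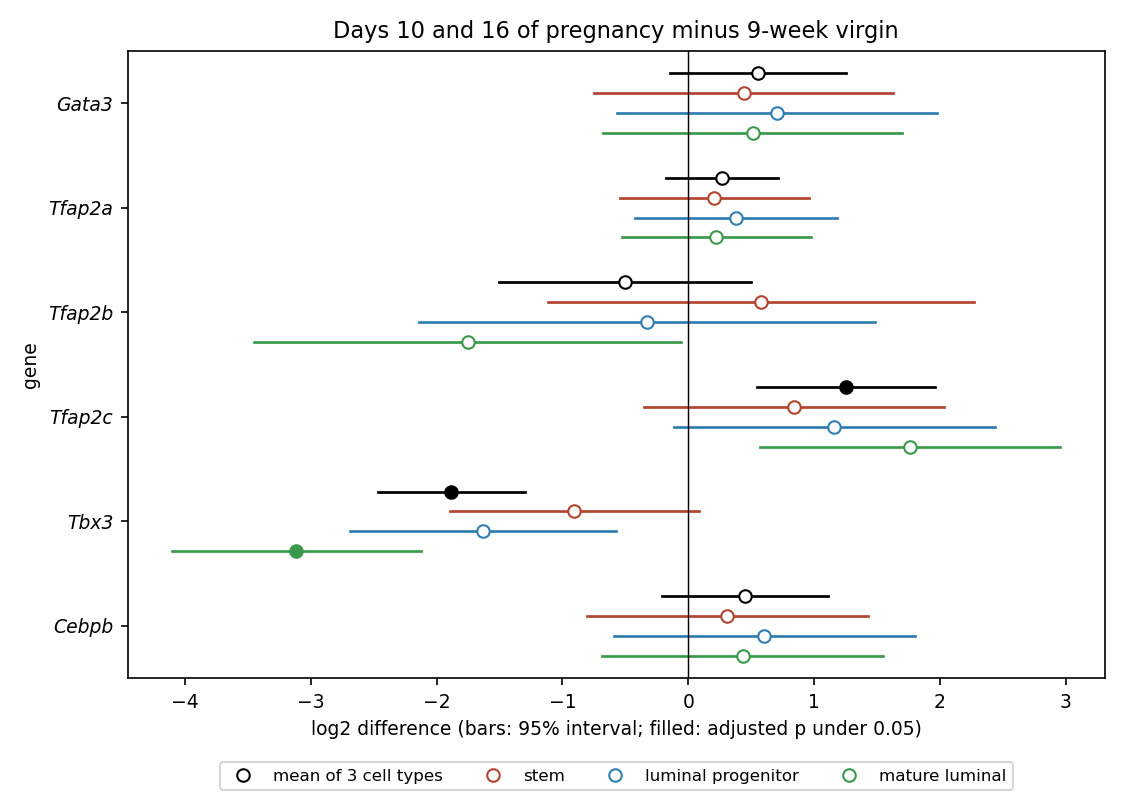
Log2 difference between days 10 and 16 of pregnancy and 9-week virgins (horizontal axis) for the 6 genes (vertical axis), as the mean of 3 cell types and in each; bars are 95% intervals of the limma fit, and filled points have an adjusted p under 0.05. Tbx3 lies at -1.88 for the mean and -3.11 in mature luminal cells, and Tfap2c at 1.25 for the mean.

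The 4 Tbx3 probe sets above the filter differed in size but not in direction. The second brightest, 1437479_x_at, read 11.29 and 8.92 in 9-week mature luminal cells, 7.63 and 7.32 at day 10, 5.27 at day 16 and 4.43 at day 19. All pregnant mature luminal values of this probe set were below all others, as they were for 8.26% of genes on their brightest probe set. Over the 3 cell types it gave -2.17 ± 0.50, adjusted p 0.0314 in a fit of every probe set. Probe sets 1445757_at and 1439567_at, near the middle of the array's signal, gave -1.47 and -1.02, with adjusted p of 0.165 and 0.208. Values near the array median can include background, so these are no exact folds.

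**Figure D3:**
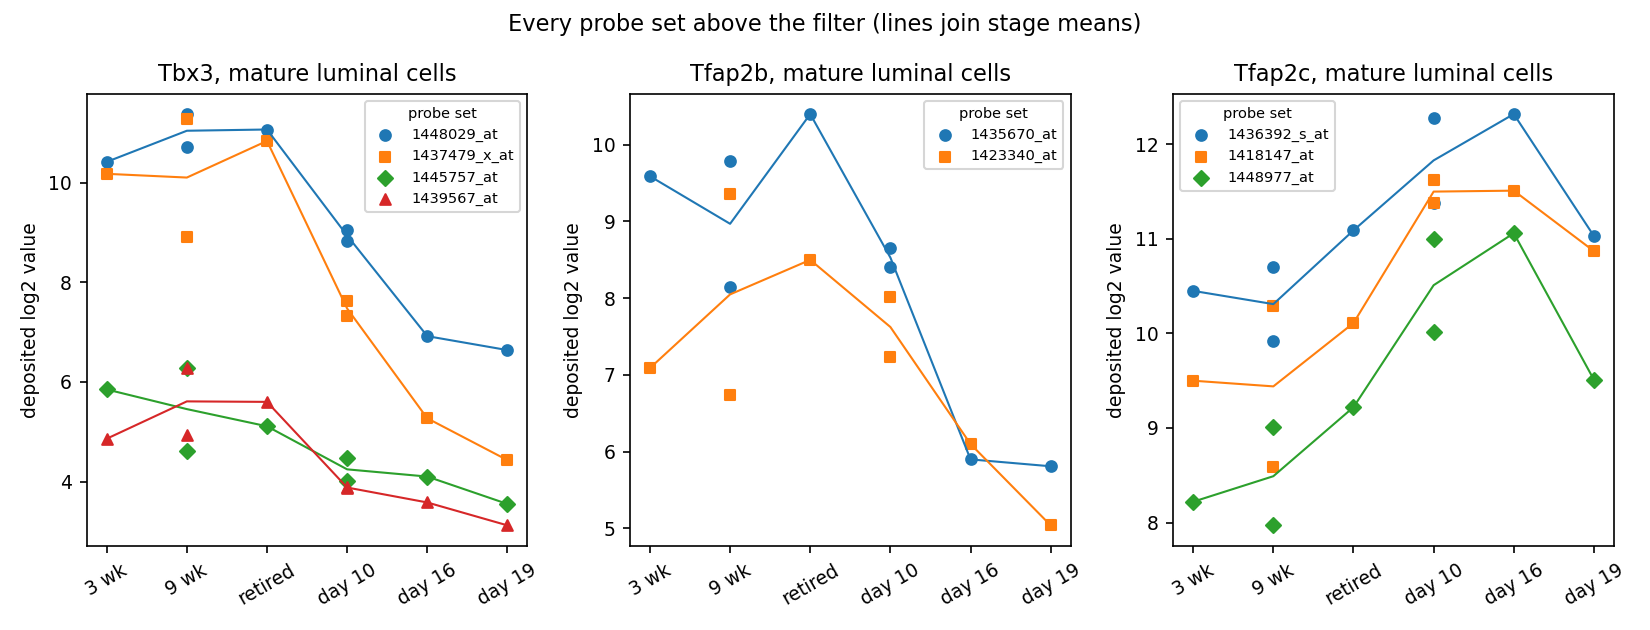
Log2 value (vertical axis) on the mature luminal arrays by stage (horizontal axis) for each probe set of Tbx3, Tfap2b and Tfap2c above the filter; lines join stage means. The 4 Tbx3 probe sets are lower at days 10 to 19 than their 9-week means, and the 3 Tfap2c probe sets are higher at days 10 and 16.

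Tfap2c in mature luminal cells read 9.92 and 10.70 at 9 weeks, 10.45 at 3 weeks and 11.09 in retired breeders. At day 10 it read 12.28 and 11.38, at day 16 12.32, and at day 19 11.03. The 4 pregnant arrays, at 11.03 to 12.32, overlapped the 4 others, at 9.92 to 11.09, since day 19 lay among the non-pregnant arrays. The difference of days 10 and 16 from 9 weeks was 1.76 ± 0.55 in mature luminal cells, with an adjusted p of 0.140. With a block for titles with replicate 1, over all arrays, which puts unnumbered arrays together with replicate 2, it was 1.62, adjusted p 0.0399. With the replicate block over the numbered arrays, which lack day 16, it was 1.52, adjusted p 0.102. Within the replicate 1 arrays it was 0.68, and within all other arrays 2.38.

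In stem cells Tfap2c read 12.82 and 11.07 at 9 weeks, 12.73 and 12.38 at day 10, and 13.01 at day 16, so that the groups overlapped. The lower virgin value came from the array with high luminal markers. In luminal progenitors it read 11.61 and 10.29 at 9 weeks and 12.09 and 12.13 at days 10 and 16. The differences were 0.84 ± 0.55 and 1.16 ± 0.58, with adjusted p of 0.571 and 0.426. The other 2 probe sets gave 1.19 and 1.56 over the 3 cell types, with adjusted p of 0.0678 and 0.0785. Tfap2c's pregnancy call was lost when any of 15 of the 23 arrays was left out, at differences of 0.96 to 1.55 over all 23, and also on the numbered arrays of day 10 and 9 weeks (1.07, adjusted p 0.0847 with the replicate block and 0.337 without it). It was 1.3, adjusted p 0.0993, without the luminal progenitor arrays. The averages within the replicate 1 arrays and all others were 1.0 and 0.98, but they cover unlike sets. The replicate 1 arrays hold day 10 in stem and mature luminal cells, and the others add day 16 and luminal progenitors. In stem cells the values were 1.31 and 0.05, where mature luminal cells had 0.68 and 2.38. The stem value of 1.31 rests on the 9-week array with high luminal markers.

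Tfap2b, which is best known from kidney and neural crest and is expressed in luminal cells of the breast, had its lowest values in late pregnancy. In mature luminal cells it read 9.79 and 8.15 at 9 weeks, 9.59 at 3 weeks, 10.40 in retired breeders, 8.65 and 8.41 at day 10, 5.90 at day 16 and 5.81 at day 19. The day-10 values lay within the 9-week pair. The 4 pregnant arrays together, at 5.81 to 8.65, overlapped the 4 others, at 8.15 to 10.40. The difference of days 10 and 16 from 9 weeks was -1.75 ± 0.78, with an adjusted p of 0.364. It was -2.04, adjusted p 0.0230, with the block for titles with replicate 1 over all arrays, and -0.44, adjusted p 0.802, with the replicate block over the numbered arrays, which lack day 16. Within the replicate 1 arrays, which lack day 16, it was 0.26, and within all other arrays -2.52. The second probe set, 1423340_at, gave -1.19 ± 0.86. Over the 3 cell types Tfap2b differed by -0.50 ± 0.46, adjusted p 0.534, with 0.57 in stem cells and -0.33 in luminal progenitors.

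Tfap2a, the AP-2 gene with the broadest embryonic role, ran from 10.20 to 11.47 on the arrays other than 3-week stem cells. In mature luminal cells it read 10.85 and 10.52 at 9 weeks, 11.16 and 10.93 at day 10, 10.77 at day 16 and 10.71 at day 19, and the groups overlapped. Its pregnancy difference over the 3 cell types was 0.27 ± 0.20, with a 95% interval of -0.17 to 0.71 and an adjusted p of 0.443. Probe set 1421996_at followed the chosen one over the 23 arrays (Pearson r 0.91, a description over arrays that share groups), but 1421995_at did not (r 0.09). The latter was highest in mature luminal cells of days 10 to 19, at 8.30 to 8.90, and lowest in day-16 luminal progenitors at 4.86. The 2 kinds of probe set thus disagreed, and values of Tfap2a depend on which one is read.

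Gata3 in mature luminal cells read 10.96 and 9.93 at 9 weeks, 11.02 and 10.37 at day 10, 11.22 at day 16, 10.40 at day 19, 9.82 at 3 weeks and 11.26 in retired breeders. The pregnant and other arrays overlapped. Over the 3 cell types its pregnancy difference was 0.55 ± 0.32, with a 95% interval of -0.15 to 1.26 and an adjusted p of 0.312. Cebpb read 11.92 and 11.34 at 9 weeks, 12.21 and 11.06 at day 10, 12.49 at day 16 and 11.75 at day 19 in mature luminal cells, again with overlap. Its difference over the 3 cell types was 0.45 ± 0.30, with a 95% interval of -0.21 to 1.11 and an adjusted p of 0.385. The second Cebpb probe set, 1427844_a_at, gave 0.94 ± 0.60. These intervals do not show that Gata3 or Cebpb stayed level.

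Some marker lists differed between the pregnant and the other mature luminal arrays, and others overlapped. The mean of the hormone-sensing markers Esr1, Pgr and Foxa1 was 6.78 to 9.35 on the 4 pregnant mature luminal arrays and 11.21 to 11.88 on the other 4, and all 3 of these genes passed as lower, where 2.25% of all genes passed in either direction. Of the luminal progenitor markers 2 of 5, Kit and Elf5, passed as higher. The milk protein mean was 10.79 to 13.50 on the pregnant arrays and 5.08 to 7.91 on the others. Luminal means overlapped, at 11.76 to 12.22 on the pregnant arrays and 11.61 to 12.40 on the others. Basal means overlapped too, at 7.63 to 9.43 and 6.66 to 9.40, as did fibroblast means, at 3.87 to 6.42 and 3.98 to 7.64. Adipocyte means were lower on the pregnant arrays with little overlap, at 4.79 to 6.39 against 6.28 to 8.31. So was the Gapdh 3′ excess, at 0.98 to 1.37 against 1.3 to 5.16. No marker of the mature luminal, luminal progenitor, milk protein, basal and fibroblast lists was at 0 on any array. Over the 3 cell types 4 of 9 basal markers passed as higher in pregnancy (3.77% of all genes did), with a median difference of 1.76 over the 9. On stem arrays the endothelial mean was 9.61 and 9.63 at 9 weeks, 6.12 and 5.59 at day 10 and 6.77 at day 16. There 0 of 7 endothelial markers passed (0.260% of all genes), and Foxa1 differed by -2.64, adjusted p 0.0463. On luminal progenitor arrays the fibroblast mean was 6.91 and 6.68 at 9 weeks and 10.32 and 10.68 at days 10 and 16. Of those 8 fibroblast markers 0 passed (0.156%). The part of these shifts in the Tbx3 and Tfap2c differences was not tested.

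In mature luminal cells, day 19 minus the mean of days 10 and 16 gave a Tbx3 difference of -1.29 ± 0.57 and a Tfap2b difference of -1.41 ± 0.97. Tfap2c differed by -1.05 ± 0.68. Within the arrays titled replicate 1, which set day 19 against day 10 alone, these differences were -2.19, -2.6 and -0.35. None of the 6 genes passed (0.0130% of all genes), limma gave 1 of the 6, Tbx3, and 1157 of all genes an unadjusted p under 0.05, and day 19 had a single array titled replicate 1.

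Averaged over the 5 stages with all 3 cell types, none of the 6 genes passed between types, at adjusted p of 0.0915 and above. Tfap2c was 12.17 in stem cells, 11.54 in luminal progenitors and 11.20 in mature luminal cells, and was lower in mature luminal than in stem cells at each of the 5 stages, from -0.20 at 3 weeks to -1.64 at 9 weeks. The difference was -0.97 ± 0.32, with an unadjusted limma p of 0.0108 and an adjusted p of 0.0915. On the numbered arrays, which cover 9 weeks and day 10 alone for this contrast, it was -1.18, with an adjusted p of 0.0372 with the replicate block and 0.172 without it. Over all 5 stages it passed with the block for titles with replicate 1 (-1.03, adjusted p 0.0131) and without the replicate 1 array of 9-week stem cells (-1.14, adjusted p 0.0223). The 3 Tfap2c probe sets gave -0.96 to -1.06.

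Tbx3 differed by -0.63 ± 0.26 between mature luminal and stem cells (unadjusted p 0.0360, adjusted p 0.185), and the sign followed the stage. At 9 weeks it was 0.32 higher in mature luminal cells, and at days 10 and 16 it was -1.28 and -2.50. Gata3 differed by 0.37 ± 0.32 between mature luminal and stem cells, with a 95% interval of -0.33 to 1.06, and by 0.30 ± 0.32 between luminal progenitors and stem cells. At 9 weeks Gata3 read 11 and 9.29 in stem cells and 10.96 and 9.93 in mature luminal cells, so that both types overlapped. The 3-week stem arrays read 9.08 and 8.89 and the 3-week luminal progenitor arrays 10.34 and 10.05. Tfap2a was 0.34 ± 0.20 higher in mature luminal than in stem cells, Tfap2b differed by -0.16 ± 0.45 and Cebpb by -0.30 ± 0.30.

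**Figure D4:**
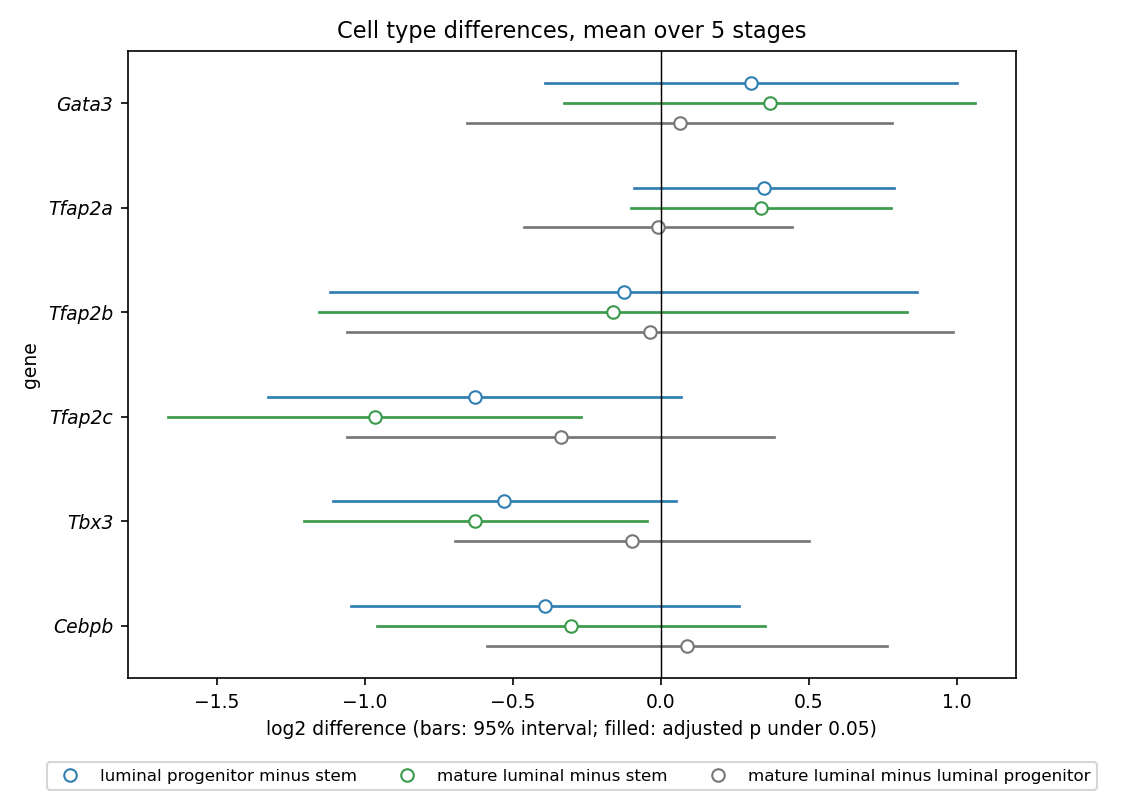
Log2 difference between cell types (horizontal axis), averaged over the 5 stages with all 3 types, for each gene (vertical axis); bars are 95% intervals of the limma fit, and no point is filled because none had an adjusted p under 0.05. Tfap2c lies farthest from 0, at -0.97 for mature luminal minus stem.

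Of the 6 genes 0 passed between luminal progenitors and stem cells (4.38% of all genes), with 0 at an unadjusted limma p under 0.05 among them and 2913 among all genes. Between mature luminal and stem cells 0 passed (8.34%), with 2, Tfap2c and Tbx3, at an unadjusted p under 0.05 and 3420 among all genes. Between mature luminal cells and luminal progenitors 0 passed (0.124%), with 0 at an unadjusted p under 0.05 and 726 among all genes. In luminal progenitors against stem cells, Tfap2a differed by 0.35, adjusted p 0.386, over the 5 stages. On the numbered arrays, which cover 3 and 9 weeks alone here, it was 0.73, with an adjusted p of 0.0484 with the replicate block and 0.178 without it. Its probe set 1421995_at differed by -0.98 ± 0.37 over the 5 stages.

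At 3 weeks, before puberty, Gata3, Tfap2a and Tfap2c in stem cells differed from 9 weeks by -1.16, -1.35 and -1.3. The 9-week stem pair lay far apart. Without its replicate 2 array these differences were -0.30, -0.98 and -0.42. Without its replicate 1 array, the one with high luminal markers, they were -2.015, -1.725 and -2.175. Tfap2a read 9.10 and 9.33 in 3-week stem cells against 10.94 and 10.20 at 9 weeks. In luminal progenitors it read 10.91 and 10.36 against 10.86 and 10.37. Tbx3 read 9.90 and 10.27 in 3-week stem cells and 11.43 and 10.99 in luminal progenitors, where the 9-week means were 10.725 and 10.335. A test of whether the 3-week difference was unlike in luminal progenitors and stem cells, chosen after these values were seen, gave 1.38 ± 0.52 for Tfap2a and 1.52 ± 0.68 for Tbx3, with adjusted p of 1 for both. Averaged over the 3 cell types, 0 of the 6 genes passed between 3 and 9 weeks (0.176% of all genes), with 0 at an unadjusted limma p under 0.05 and 1674 among all genes. Both 3-week stem arrays stood apart in the mean of endothelial markers, at 11.05 and 11.36, where the other stem arrays ran from 5.59 to 9.63. The part of this in the 3-week stem differences was not tested.

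In retired breeders, Tbx3 differed from 9-week virgins by -0.01 ± 0.34 on average, with a 95% interval of -0.75 to 0.74. It read 11.08 in stem cells, 9.93 in luminal progenitors and 11.07 in mature luminal cells. Tfap2c read 12.68, 12.02 and 11.09 in the same order, and differed by 0.86 ± 0.41. Tfap2b differed by 1.17 ± 0.59, Tfap2a by 0.67 ± 0.26, Gata3 by 0.67 ± 0.41 and Cebpb by 0.57 ± 0.39. Retired breeder groups had 1 unnumbered array each. Without the replicate 1 arrays these differences were 0.48 for Tfap2c, 0.31 for Tfap2b, 0.41 for Tfap2a, 0.11 for Gata3 and 0.11 for Cebpb. The comparisons of pregnancy, 3 weeks and retired breeders share the 9-week arrays. None of the 6 genes passed (0.0065% of all genes), with 1, Tfap2a, at an unadjusted limma p under 0.05 and 1113 among all genes.

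Over the 16 group means, Tfap2b and Tbx3 had a Pearson correlation of 0.86 (Spearman 0.66), Gata3 and Tfap2a 0.74 (0.60), and Tfap2c and Cebpb 0.73 (0.74). Tfap2c and Tbx3, which passed in opposite directions in pregnancy, had -0.27. The means share arrays, stages and the replicate shift, so these values are descriptions. The genes most like each member by Pearson correlation over the 16 group means were also named. For Tbx3 they were Dlg4, a synaptic scaffold gene, at 0.98, Ptn, which encodes the growth factor pleiotrophin, at 0.97, and Tmcc2 at 0.96. For Tfap2c they were Boc, a Hedgehog co-receptor gene, at 0.95, the oxytocin receptor gene Oxtr at 0.94 and Mzt2 at 0.94. Tfap2b was nearest to Kcnh1 (0.94), Ly75 (0.94) and Dnal1 (0.93). Correlations were lower for Gata3, with Zkscan3 (0.88), Mmachc (0.86) and Trub1 (0.86), for Cebpb, with Slc41a1 (0.89), Ap4s1 (0.88) and Rassf4 (0.88), and for Tfap2a, with Pcgf6 (0.87), Zfp772 (0.83) and Fxyd3 (0.83).

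Of 13 listed partners of GATA3 and hormone-sensing factors 11 were tested, and in pregnancy 1 rose, 4 fell and 6 did not pass. Over all genes 3.77% rose and 3.36% fell. Those that fell were Foxa1, a pioneer factor gene (-2.62 ± 0.27), Esr1, the oestrogen receptor gene (-2.37 ± 0.29), the progesterone receptor gene Pgr (-3.68 ± 0.52) and Cited1, a coactivator gene (-3.77 ± 0.52), with adjusted p of 0.000235 to 0.00213. Lmo4, a LIM-only factor gene named in addition after its values were seen, rose by 1.74 ± 0.28, adjusted p 0.00448. The median over the 11 was -0.50, against 0.10 over all genes. For mature luminal cells alone the counts were 1 higher and 4 lower, where 2.25% of all genes passed. Across cell types Foxa1 was higher in luminal progenitors by 1.39 and in mature luminal cells by 1.42 than in stem cells, Esr1 was higher in mature luminal cells by 1.06 and Gata2, a GATA3 paralog, was lower there, at -1.84. Zfpm1, which encodes the GATA cofactor FOG1, was lower in luminal progenitors, at -1.64.

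Of the 8 AP-2 family members and cofactors, all tested, 2 rose in pregnancy and 0 fell, where 7.13% of all genes passed in either direction. Cited4, a CBP/p300 and AP-2 coactivator gene, rose by 3.15 ± 0.47, adjusted p 0.00300, and Kctd15, an AP-2 inhibitor gene, by 1.32 ± 0.34, adjusted p 0.0399. The list's median was 0.80. Cited4 rose in mature luminal cells by 3.56 and Cited2 by 2.34. Kctd15 was lower than in stem cells in luminal progenitors, at -1.60, and in mature luminal cells, at -1.30. Of 6 genes linked to AP-2 factors, Kit, the receptor of stem cell factor, rose in pregnant mature luminal cells by 2.88 ± 0.62, adjusted p 0.0345, and Erbb3 was higher in mature luminal than in stem cells by 1.80, while Erbb2, Cdh1, Krt8 and Krt18 passed in none of these comparisons.

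Among 9 other T-box genes, 0 passed in pregnancy, where 7.13% of all genes did, so that the count is near the background, and Tbx2, the closest relative of Tbx3, had a pregnancy difference of 0.68 with an adjusted p of 0.260. Tbx2 was lower than in stem cells in luminal progenitors, at -1.69, and in mature luminal cells, at -1.52. Of 9 CEBP family genes and partners 7 were tested, and Cebpd, which is induced in involution and stress, rose in pregnancy by 1.19 ± 0.31, adjusted p 0.0403, as the 1 gene of the 7 that passed. Of 10 luminal progenitor and alveolar factors 1 rose and 2 fell in pregnancy, against the same 7.13%. Elf5, the alveolar ETS factor gene, rose by 3.38 ± 0.53, adjusted p 0.00387, Runx1 fell by 1.27 ± 0.31 and Sox9 fell by 0.47 ± 0.13, with adjusted p of 0.0311 and 0.0455. Ehf, another ETS factor gene, was higher in luminal progenitors by 1.62 and in mature luminal cells by 1.95 than in stem cells, and Hey1, a Notch target, was lower in mature luminal cells, at -1.49.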

How the data were processed

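Per the labels' protocols, biotinylated cRNA from messenger RNA of purified mammary epithelial cells was put on Affymetrix arrays. The authors deposited 1 table of log2 expression values for 45101 probe sets on 23 arrays, running from 0 to 14.28. The log2 scale was read from the values. The summarising software (not given in the sources used here) is not known, and values were used as deposited. Probe sets were named through the platform annotation where they had 1 gene symbol (34945), and 932 with several and 9160 with none were not named. A gene was represented by its probe set with the highest mean and tested if 2 or more arrays had it above their 40th percentile, as 15378 of 18193 genes did. One limma 3.58.1 model in R 4.3.3 had 1 mean per group over all arrays, with an intensity trend, 7 residual and 4.74 prior degrees of freedom. The 9 single arrays were taken to vary as much as the 7 duplicated groups. Tests were two-sided with Benjamini-Hochberg adjustment over all genes kept, and ± gives standard errors. The script was tested on simulated data. The number of arrays limits the precision.

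The replicate numbers of the titles were checked for pairing. Deviations from the group means correlated above 0.1 in all 21 pairs of groups (0.303 to 0.682), so blocked fits are given where they change a call. The block for titles with replicate 1 over all arrays put the 8 unnumbered arrays together with those titled replicate 2. The labels do not state that these belong together, and calls with that block rest on this assumption. The text names all 6 genes with all their probe sets, the 3 genes most correlated with each over group means, and up to 4 genes per list that passed. The members and the gene lists were chosen with earlier results of these data known. Some of the listed genes were not analysed here.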

Additional observations from a re-analysis of the deposited data

How the results depend on the processing

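Alternatives covered the filter, the mean of all probe sets, quantile normalization, raised low values, the replicate block, within-replicate values, arrays left out, the groups in the fit and the intensity trend. Of 2574 gene values under them 152 changed sign, 14 of these where the main difference was over 1 standard error. The sign changed for 0 differences called in either setting. Most of the 2574 values belong to differences that were not called, so they could not count there. The fit of numbered arrays drops the unnumbered arrays and so changes the stages as well as adding the block, and the same arrays were fitted without the block too, added after seeing the data. Between luminal progenitors and stem cells the genes that passed went from 0 to 1 with the replicate block over numbered arrays and stayed at 0 on those arrays without it. Between mature luminal and stem cells they went from 0 to 1 with either replicate block, stayed at 0 on the numbered arrays without it, and were 0 to 1 with single arrays left out. For pregnancy over the 3 cell types, 2 became 0 on the numbered arrays without the block and 1 with the replicate block over them, with the compared groups alone, without the intensity trend and, added after seeing the data, without the luminal progenitor arrays, and 1 to 2 with single arrays left out. Tbx3 stayed past the threshold in each of these but the numbered arrays without the block (adjusted p 0.105), and was at -1.83 with the block over all arrays (adjusted p 0.000752). For pregnancy in mature luminal cells, 1 became 0 with the mean of all probe sets, with the compared groups alone and on the numbered arrays without the block, 3 with the block over all arrays (Tfap2b, Tfap2c and Tbx3), and 0 to 1 with single arrays left out. The cause of these changes was not tested. The 8 other comparisons kept a count of 0 in all settings run. The number of arrays limits the precision, and 9 of the 16 groups have 1.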
